A study of Mus musculus with 6 samples.

Results

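The regions described here are the stretches of open chromatin assigned to 10 genes of transcriptional regulators in mouse lung fibroblasts: the inhibitors of differentiation Id1, Id2, Id3 and Id4, the basic helix-loop-helix genes Twist1 and Twist2, the zinc finger genes Snai1 and Snai2, and the zinc finger homeodomain genes Zeb1 and Zeb2. A region was included when the authors' annotation named one of these genes as nearest and placed the region within 100 kb of its transcription start site (TSS). This gave 56 of 68452 rows over 3 tables: 49 of 64217 in the comparison of 32 kPa with plastic, 5 of 2121 in that of 0.2 kPa with 32 kPa and 2 of 2114 in that of 0.2 kPa with plastic. Accessibility came from Omni-ATAC-seq, an assay that reads where a transposase can insert into DNA. Fibroblasts positive for GFP had been sorted from lungs of mice carrying a Col1a1-GFP transgene, in which a collagen I gene's regulatory sequence marks the cells, so fibroblasts without that signal were not sampled. All cultures shared this genotype, the collagen I coating and 8 days in medium with 10% serum, and differed in the surface: a soft silicone (PDMS) of 0.2 kPa, a stiff one of 32 kPa, or plastic for tissue culture, with 2 libraries each.

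Id proteins have a helix-loop-helix but no DNA-binding basic region. They pair with E proteins and keep them off DNA, and their genes are known direct targets of BMP signalling through SMAD proteins. Twist1 and Twist2 are bHLH factors of mesenchymal cells that do bind DNA, at E-boxes. Snail and Zeb proteins also recognise E-boxes, where they repress epithelial genes such as that of E-cadherin, and all of these factors are studied in fibrosis as regulators of mesenchymal state.

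RefSeq (GRCm38.p6, the same primary assembly as the files' mm10) gave promoter sequence for 7 of the 10 genes. The 250 bases upstream of the start site are shown for the promoters of Id4 and Twist1, which were listed as more accessible on 32 kPa than on 0.2 kPa, and for those of Id2, Id3 and Snai1, which had levels of 6.13 to 6.70 on 32 kPa, like the 6.49 and 6.65 of Twist1 and Id4, and were not listed. Capitals mark matches, on either strand, to the motifs searched: CAGGTG (the E-box of Snail and Zeb), CAGATG and CATATG (E-boxes of Twist), GGCGCC (a GC element of BMP SMADs), TGANTCA (AP-1) and GGAATG (the TEAD core). None of these motifs overlapped another in the sequences printed.
Id4 (chr13:48260866-48261115, plus strand): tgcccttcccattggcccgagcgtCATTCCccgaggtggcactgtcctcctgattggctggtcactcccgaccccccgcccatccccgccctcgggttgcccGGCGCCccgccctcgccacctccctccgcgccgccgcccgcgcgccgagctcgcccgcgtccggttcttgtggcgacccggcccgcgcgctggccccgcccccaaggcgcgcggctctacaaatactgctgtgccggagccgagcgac
Twist1 (chr12:33957421-33957670, plus strand): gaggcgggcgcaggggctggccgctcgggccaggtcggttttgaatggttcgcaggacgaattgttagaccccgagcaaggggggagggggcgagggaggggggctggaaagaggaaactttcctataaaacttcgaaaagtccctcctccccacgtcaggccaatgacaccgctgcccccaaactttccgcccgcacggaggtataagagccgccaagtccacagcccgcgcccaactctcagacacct
Id2 (chr12:25096093-25096342, minus strand): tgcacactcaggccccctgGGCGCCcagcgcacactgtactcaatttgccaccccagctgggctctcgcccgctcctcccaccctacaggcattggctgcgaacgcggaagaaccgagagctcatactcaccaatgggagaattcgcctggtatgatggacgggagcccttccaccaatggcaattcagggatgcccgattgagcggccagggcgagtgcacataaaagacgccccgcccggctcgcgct
Id3 (chr4:136143572-136143821, plus strand): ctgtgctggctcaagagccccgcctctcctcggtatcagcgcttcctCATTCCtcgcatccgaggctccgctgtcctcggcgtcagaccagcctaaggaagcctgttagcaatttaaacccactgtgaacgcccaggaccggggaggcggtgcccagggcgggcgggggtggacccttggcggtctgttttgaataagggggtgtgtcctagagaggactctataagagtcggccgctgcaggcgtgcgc
Snai1 (chr2:167537945-167538194, plus strand): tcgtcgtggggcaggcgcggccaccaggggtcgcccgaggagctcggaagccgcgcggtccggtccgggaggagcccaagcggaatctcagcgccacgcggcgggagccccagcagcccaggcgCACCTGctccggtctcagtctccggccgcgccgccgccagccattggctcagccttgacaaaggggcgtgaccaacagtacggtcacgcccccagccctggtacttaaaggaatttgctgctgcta

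Each of these 250-base windows lay almost wholly inside the authors' region at that promoter, with 250 bases covered at Id4 and Snai1, 246 at Id2, 238 at Twist1 and 235 at Id3. The Id4 window was the richest in G and C, at 75.6% with 35 CpG dinucleotides, followed by Snai1 at 70.0% with 27. The windows of Id2, Id3 and Twist1 held 62.4% to 62.8% and 18 CpG each, against medians of 52.4% and 6 over all 32851 promoter windows. GGCGCC was present once in Id4, starting 148 bases before the TSS, and once in Id2, starting 231 bases before it, and was held by 9.59% of all windows. GGAATG was present once in Id4 and once in Id3, 226 and 203 bases before the TSS and read as CATTCC on the printed strand, and was held by 12.6% of windows. The Snai1 window held 1 CAGGTG, read as CACCTG on the printed strand, 126 bases before the TSS, and 17.2% of all windows had that motif. CAGATG (14.4% of windows), CATATG (3.46%) and TGANTCA (6.75%) had no match in these windows, and the Twist1 window had no match to any motif searched. A match is a description of the letters and not a binding site.

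Against the soft surface, regions at Id1, Id3, Id4 and Twist1 were more accessible on 32 kPa, and regions at Id3 and Id4 were more accessible on plastic. Throughout, a level is the log2 normalised read count that the authors averaged over a culture, and a fold is a difference of levels on that log2 scale. The tables of 0.2 kPa hold only regions with a fold of at least 1 and an FDR (the authors' adjusted p) of at most 0.05, so their minimum size was fixed by the authors' selection. Every listed region was higher on the stiffer culture, and whether regions higher on 0.2 kPa had been left out is not given. Of the 5 regions on the 32 kPa list, 4 belonged to Id genes and 1 to Twist1. By position 2 were promoters, 1 was an intron of a neighbouring transcript and 2 were intergenic. No region of Id2, Twist2, Snai1, Snai2, Zeb1 or Zeb2 was on either list.

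**Figure D1:**
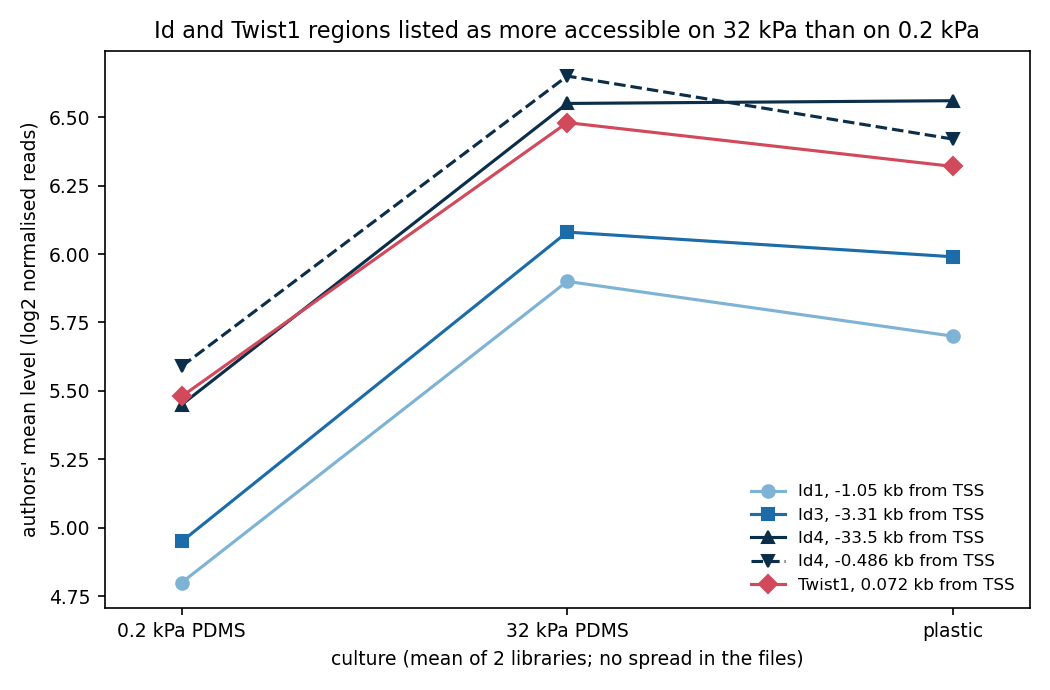
Authors' mean level (log2 normalised reads, vertical axis) on 0.2 kPa PDMS, 32 kPa PDMS and plastic (horizontal axis) for the 5 regions on the 32 kPa list, 1 line per region; each point is the mean of 2 libraries, with no spread in the tables. All 5 lines start lowest on 0.2 kPa, between 4.80 and 5.59, and run from 5.70 to 6.65 on the stiffer cultures.

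Id4 was the gene with the most listed regions. Its promoter region (chromosome 13, 48260738 to 48261145, over the Id4 promoter printed above) had a level of 5.59 on 0.2 kPa, 6.65 on 32 kPa and 6.42 on plastic. The fold of 32 kPa over 0.2 kPa was 1.06 (2.08-fold, FDR = 0.00994) in the authors' deposited table. On plastic it stood 0.83 above the soft level, short of the fold of 1 that the plastic list required. A region farther upstream (chromosome 13, 48227742 to 48228101), in an intron of the noncoding gene A330033J07Rik and 33.5 kb from Id4 in the annotation, was on both lists. Its levels were 5.45 on 0.2 kPa, 6.55 on 32 kPa and 6.56 on plastic. The fold was 1.11 in both comparisons in the authors' deposited tables, with an FDR of 0.00882 for 32 kPa and 0.00272 for plastic. The stiffer cultures thus gave nearly equal levels at this intronic region, and a difference of 0.23 at the promoter.

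Id3, which encodes another Id protein, had 1 region on both lists, an intergenic one 3.31 kb upstream (chromosome 4, 136140383 to 136140639). Its level was 4.95 on 0.2 kPa, 6.08 on 32 kPa and 5.99 on plastic. The authors' deposited tables gave folds of 1.13 for 32 kPa (FDR = 0.0132) and 1.05 for plastic (FDR = 0.0174). The Id3 promoter itself had a higher level than this upstream region, at 6.38 on 32 kPa and 6.31 on plastic, and was not listed. The promoter region was also longer, at 362 bp against 262 bp. Per 100 bp the order was reversed on both cultures. The promoter then had 4.52 on 32 kPa and 4.45 on plastic, and the upstream region 4.69 and 4.6. Id1 had a similar arrangement, with a listed intergenic region 1.05 kb upstream (chromosome 2, 152735085 to 152735316) and an unlisted promoter. The upstream region had levels of 4.80 on 0.2 kPa, 5.90 on 32 kPa and 5.70 on plastic, and a fold of 1.11 for 32 kPa (FDR = 0.0202) in the authors' deposited table. It was 0.90 above the soft level on plastic. At Id1 the promoter level was 5.42 on 32 kPa and 5.25 on plastic, lower than at the upstream region.

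Twist1 had a listed region over its promoter and first bases (chromosome 12, 33957433 to 33958053), the longest of the 5 at 621 bp. Its level was 5.48 on 0.2 kPa, 6.48 on 32 kPa and 6.32 on plastic. The fold of 1 for 32 kPa (FDR = 0.017 in the authors' deposited table) sat at the authors' lower limit for listing. On plastic the region was 0.84 above the soft level and not listed.

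These folds were of ordinary size for the lists. The median of the 5 was 1.11 against 1.12 over all 2121 regions on the 32 kPa list, and 52.8% of the listed regions had a fold below the 1.13 of Id3. The 2 regions on the plastic list had a median of 1.08 against 1.12 over its 2114 regions. Their soft levels, 4.80 to 5.59, lay at or above the median soft level of the 32 kPa list, except that of Id1 (4.80 against 4.83). The 3 regions on the 32 kPa list alone stood 0.83 to 0.90 above soft on plastic, where the 2117 matched regions of that list had a median of 0.95 (interquartile range 0.80 to 1.08). Both comparisons used the same 0.2 kPa libraries and so are not independent. Between 32 kPa and plastic themselves the 5 regions had unadjusted p of 0.393 to 0.981 in the authors' deposited table, so a place on 1 list and not on the other does not show a difference between the stiffer cultures.

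The number of listed regions was read against the same count over all regions. Only regions reaching the weakest listed level (4.97 on 32 kPa, 4.94 on plastic) could be compared with the listed ones. Of 19 such regions of the 10 genes on 32 kPa, 5 (26.3%) matched a listed region, against 12.4% of all 17026 regions at that level and 3.3% of all 64217. On plastic it was 2 of 21 (9.52%), against 11.7% of 18002 and 3.27% of all. Counted by gene, 4 of the 9 genes with such a region were listed for 32 kPa and 2 of 9 for plastic, against 17.2% and 15.4% of all genes counted the same way. A gene with more such regions has more occasions to be listed, and the shares by gene were not adjusted for that. With 5 and 2 regions these shares are descriptions, and regions of a gene are not replicates of it. In a bulk culture, a region open in more cells and one more open in each cell cannot be told apart.

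By family, the regions at or above 4.97 on 32 kPa that were listed were 4 of 10 for Id, 1 of 4 for Twist and 0 of 5 for Snail and Zeb together. The share over all 17026 regions at that level was 12.4%. With so few regions these counts do not show a difference between families. The 14 unlisted regions at that level included 5 promoters, those of Id1, Id2, Id3, Snai1 and Zeb2. The Id2 promoter had the highest level of all 49 regions on 32 kPa, 6.70, and was not listed. On plastic it had 6.18, and the intronic Id4 region was highest at 6.56. Absence from a list can mean a smaller fold, an FDR above 0.05 or no test in that comparison. If the authors' FDR was a Benjamini-Hochberg adjustment over the region identifiers, the 32 kPa comparison tested about 20896 regions (interquartile range of the estimate over regions 20744 to 21289), far fewer than the 64217 of the other table. No level on 0.2 kPa was given for the unlisted regions, and the other 30 of the 49 regions were below 4.97 on 32 kPa, where no region was listed.

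**Figure D2:**
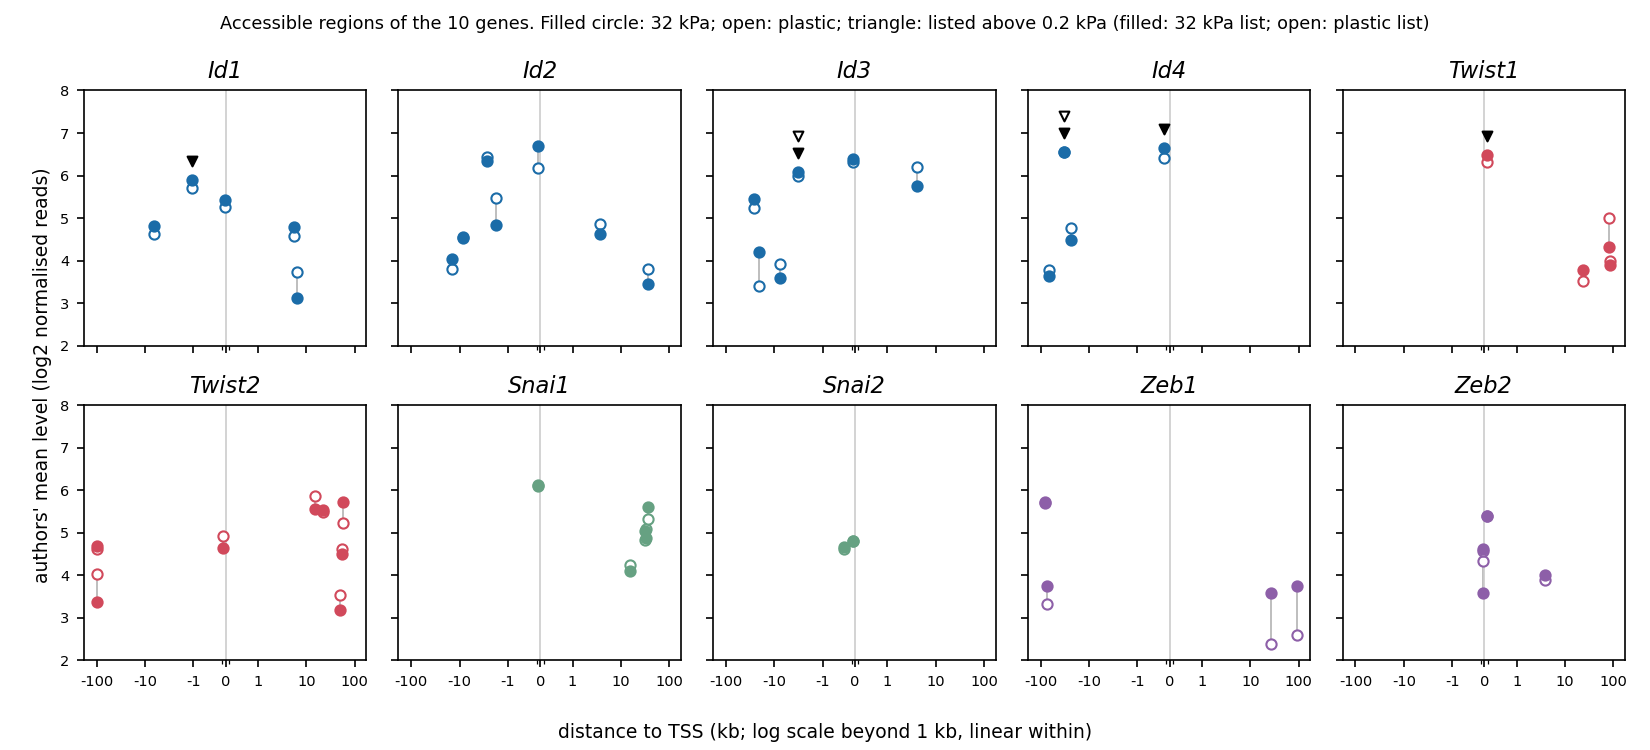
Authors' mean level (log2 normalised reads, vertical axis) of the 49 regions against distance to the TSS (kb, linear within 1 kb and log beyond, horizontal axis), 1 panel per gene, on 32 kPa (filled circles) and plastic (open circles); filled triangles mark regions on the 32 kPa list and open triangles those on the plastic list. The triangles stand at Id1, Id3, Id4 and Twist1.

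The loci differed in how many regions they held and where these lay. The 49 regions comprised 26 intergenic, 12 promoter, 10 intronic and 1 at a transcript's end, the last lying 36.1 kb from Id2 at the end of Kidins220. The Id genes had 22 regions: 7 at Id2, 6 at Id3, 5 at Id1 and 4 at Id4. The 12 Twist regions were 8 at Twist2 and 4 at Twist1, the 7 Snail regions were 5 at Snai1 and 2 at Snai2, and Zeb1 and Zeb2 had 4 each. The distance limit left out 14 regions, 3 at Twist1, 5 at Twist2 and 6 at Zeb1. Nearest to the limit, the Twist2 region 99.8 kb upstream had a level of 4.68 on 32 kPa and the next one out, 109 kb upstream, had 4.53.

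Among the Id genes, Id2 had a pair of strong regions, the promoter (6.70 on 32 kPa, 6.18 on plastic) and a region 2.73 kb upstream (6.35 and 6.44). Between them, 1.81 kb upstream, lay a region with a level of 4.83 on 32 kPa and 5.48 on plastic. At Id3 a region 4.03 kb downstream of the TSS had 5.76 on 32 kPa and 6.20 on plastic, and one 26.6 kb upstream had 5.45 and 5.23. Id3 therefore had strong regions on both sides of its promoter, while the strong regions of Id4 and Id1 were the promoter and upstream ones already described.

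Twist1 and Twist2, although close relatives, differed in layout. The Twist1 promoter carried the gene's strongest region, and its other regions within 100 kb were weaker, at 3.77 to 4.31 on 32 kPa and 3.53 to 5.01 on plastic. The promoter region was also the longest, and per 100 bp of region the gap was smaller. The promoter then had 3.84 on 32 kPa and 3.67 on plastic, and the others 2.85 to 3.45 and 3.07 to 3.55. At Twist2 the promoter was modest (4.64 on 32 kPa, 4.92 on plastic). The strongest Twist2 regions within 100 kb lay inside or beyond the gene, at 15.4 kb (5.55 and 5.87), 22.2 kb (5.53 and 5.50) and 56.9 kb (5.72 and 5.24). The Twist1 regions left out by the limit were in introns of the neighbouring histone deacetylase gene Hdac9, at levels of 3.13 to 4.55 on 32 kPa. Those left out at Twist2 had 3.10 to 5.77 on 32 kPa, the highest of them 155 kb downstream.

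At Snai1, the gene of the Snail repressor, the promoter had 6.13 on 32 kPa and 6.10 on plastic. A group of 3 intergenic regions 31.9 to 36.8 kb downstream had levels of 4.88 to 5.62 on 32 kPa and 4.83 to 5.32 on plastic. Snai2, which encodes Slug, had 2 regions, both at its promoter, with 4.67 and 4.82 on 32 kPa and 4.63 and 4.82 on plastic. Snai2 was the only one of the 10 genes with no region at the lowest listed level on either stiffer culture, so its absence from the lists says nothing on a change.

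At Zeb1 no region among the rows used here lay within 10 kb of the TSS. Its strongest region within 100 kb was 81.6 kb upstream in an intron of Gm10125, at 5.71 on 32 kPa and 5.73 on plastic. The others were weak, at 3.59 to 3.76 on 32 kPa. Zeb2 had 3 promoter regions at separate annotated starts, with levels of 5.39, 4.62 and 3.59 on 32 kPa and 5.40, 4.58 and 4.35 on plastic, the second of them at the start of the antisense transcript Zeb2os. A further 3 regions inside the Zeb2 gene carried the name of Mir5129 and were not counted; their levels were 3.05 to 4.65 on 32 kPa and 3.30 to 4.68 on plastic.

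Levels were compared between genes per 100 bp of region, since a longer region collects more reads. Of the 9 genes with a region within 1 kb of the TSS, the region nearest the TSS was most open at Id2 (5.01 on 32 kPa, 4.49 on plastic, in log2 normalised reads per 100 bp). Next on 32 kPa came Id4 (4.62), Id3 (4.52), Id1 (4.30) and Snai1 (4.29). Twist1 (3.84), Zeb2 (3.77), Snai2 (3.49) and Twist2 (3.12) were lower. The Zeb2 value is that of the region nearest an annotated start, which is the start of Zeb2os. Of the regions at starts of Zeb2 transcripts, the nearest, 0.039 kb from its start, had 2.97 on 32 kPa and 3.73 on plastic. With that region Zeb2 would stand below Twist2 on 32 kPa and above it on plastic. The other, 82 bases from its start, had 3.72 on 32 kPa and 3.73 on plastic. On plastic Id3 (4.45) stood above Id4 (4.39) and Snai1 (4.26) above Id1 (4.13), so the order of these neighbours was not the same on both cultures. Twist1, behind only Id2 and Id4 by level per region at 6.49, stood behind Id3, Id1 and Snai1 as well per length, its region being 628 bp long in this table. No spread between libraries was available to say which neighbours differ.

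**Figure D3:**
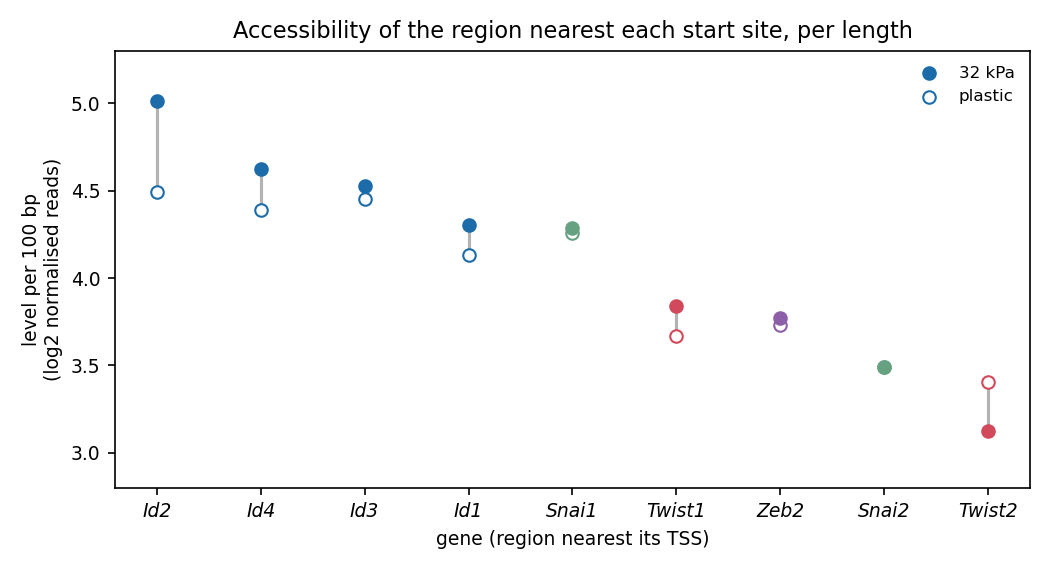
Level per 100 bp (log2 normalised reads, vertical axis) of the region nearest the TSS of each of 9 genes (horizontal axis, ordered by the 32 kPa level), with filled circles for 32 kPa and open circles for plastic. The 4 Id genes and Snai1 lie between 4.13 and 5.01, and Twist1, Zeb2 (at the Zeb2os start), Snai2 and Twist2 between 3.12 and 3.84.

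The stiffer surfaces were set against each other at all 49 regions. None passed an FDR of 0.05 in the authors' deposited table, where 0 of 64217 regions (0%) did and every FDR was 1. None of the 49 had an unadjusted p under 0.05 either, against 370 regions (0.576%) of the whole table. The fold of plastic over 32 kPa was above 0 at 22 regions, below 0 at 25 and 0 at 2, with a median of -0.03 against 0.05 over all regions. By family the median was -0.04 for Id, 0.11 for Twist, -0.03 for Snail and -0.08 for Zeb. At 40 of the 49 regions the cultures differed by 0.5 or less.

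The smallest unadjusted p was that of the Id2 promoter, 0.0583, with a fold of -0.52 in the authors' deposited table (6.70 on 32 kPa, 6.18 on plastic). The Id2 region 1.81 kb upstream had a fold of the other sign, 0.65 (p = 0.109 in the authors' deposited table), and neither passed the authors' test. The largest folds were at the weak intronic regions of Zeb1 26.9 and 94.3 kb downstream of the TSS, -1.20 and -1.15 in the authors' deposited table, with unadjusted p of 0.151 and 0.171. These had levels of 3.59 and 3.74 on 32 kPa and 2.39 and 2.59 on plastic. In all, 9 of the 49 regions lay outside the 5th to 95th percentile of regions at a like level, a band that leaves out 10% of all regions by construction, and none of them passed the authors' test.

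**Figure D4:**
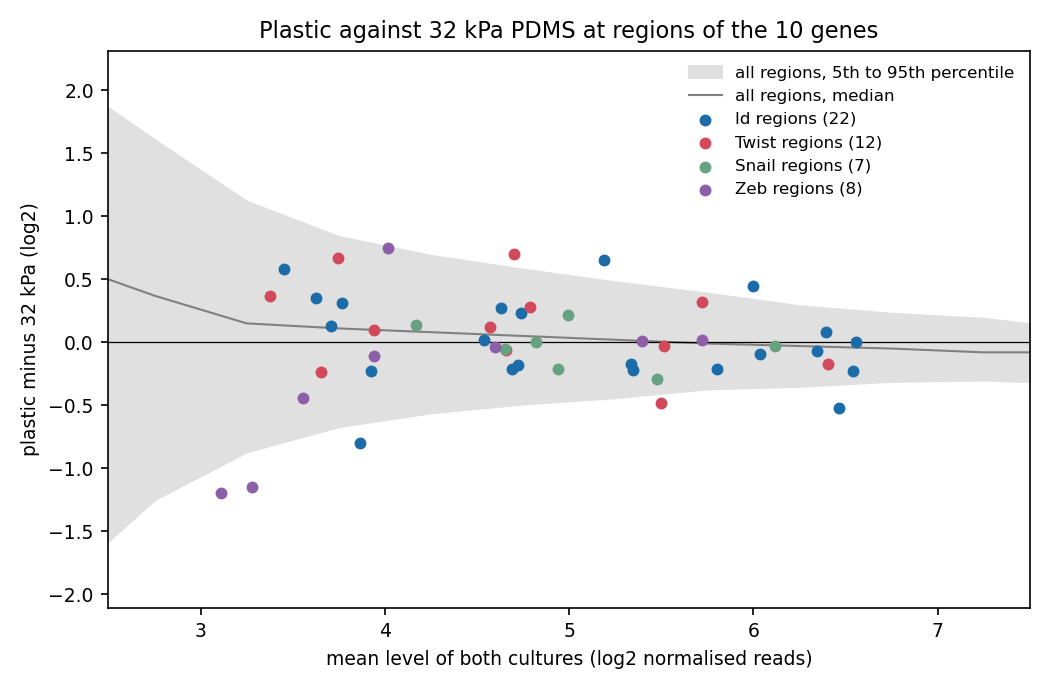
Plastic minus 32 kPa (log2, vertical axis) against the mean level of both cultures (log2 normalised reads, horizontal axis) at the 49 regions, coloured by family, over the median (line) and the 5th to 95th percentile (grey band) of all regions. The points scatter on both sides of 0, the 2 lowest are the Zeb1 regions at -1.20 and -1.15, and 40 points lie inside the band.

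Among 62 genes that act with or around these factors, 7 of the 35 with a region at the lowest listed level were on the 32 kPa list and 4 of 36 on the plastic list, against the 17.2% and 15.4% of all genes given above. Of the E proteins, the partners that Id proteins bind, Tcf12 was listed for 32 kPa at a region 21.4 kb upstream (4.64 on 0.2 kPa, 5.74 on 32 kPa, FDR = 0.0274 in the authors' deposited table), and Tcf3 and Tcf4 were not. Of BMP signalling genes, the type I receptor gene Acvrl1 was on both lists, at an intronic region with 4.18 on 0.2 kPa, 5.32 on 32 kPa and 5.28 on plastic (FDR = 0.0398 for 32 kPa and 0.0437 for plastic in the authors' deposited tables). A further Acvrl1 region 1.54 kb upstream was on the plastic list only, with 4.23 on 0.2 kPa, 5.34 on plastic and 4.81 on 32 kPa (fold 1.11, FDR = 0.0475 in the authors' deposited table). The SMAD gene Smad1 was listed for 32 kPa, 99.3 kb upstream (fold 1.05), and the promoter of the type II receptor gene Bmpr2 for plastic (fold 1.01), in the authors' deposited tables. That makes 2 of 13 genes of this group on each list.

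Of other bHLH genes, the promoter of the Notch target Hey1 rose from 5.20 on 0.2 kPa to 6.34 on 32 kPa (fold 1.14, FDR = 0.00823 in the authors' deposited table), with 6.09 on plastic. Hes1, another Notch target, was listed for 32 kPa 46.4 kb from its TSS (fold 1.08), and Msc, a bHLH repressor gene, for plastic 19.5 kb upstream (fold 1.02), in the authors' deposited tables. Of other transition regulators, the homeobox gene Gsc had the largest fold of the group, 1.48 at a region 18.9 kb upstream (3.67 on 0.2 kPa, 5.14 on 32 kPa, FDR = 0.0187 in the authors' deposited table). Tead1, a partner of YAP and TAZ, had 2 regions on the 32 kPa list with folds of 1.03 and 1.27, and the promoter of the forkhead gene Foxc1 was on the plastic list with a fold of 1.06, in the authors' deposited tables. None of the epithelial genes that Snail and Zeb repress, or of the factors that oppose them, was listed, 0 of 2 with a region at that level of 14 in all. Vim, Cdh2 and Cdh11 were not listed either. None of the 227 regions of the 62 genes passed an FDR of 0.05 between 32 kPa and plastic in the authors' deposited table, and 0 had an unadjusted p under 0.05.

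The promoter regions of other genes most like the 5 listed ones were found by Euclidean distance over their levels on the 3 cultures, among 957 promoter regions on the 32 kPa list. Nearest to the Id4 promoter were those of Ankrd39, Vamp4 and Mrpl40, at distances of 0.030 to 0.047. Nearest to Twist1 were Ddx10, Rc3h2 and Serinc3, at 0.049 to 0.058. Usp3 at 0.022 was nearest to Id1, Ncoa4 at 0.041 to Id3 and AU041133 at 0.014 to the intronic Id4 region. All 957 had been selected for a fold of at least 1 between 32 kPa and 0.2 kPa, so the distances mostly compare how open the regions were.

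The fibroblast label was checked at promoters on the stiffer cultures. Of 8 fibroblast markers, 7 had a region within 1 kb of the TSS, at levels of 3.76 to 5.94 on 32 kPa and 2.97 to 6.15 on plastic, and Lum had none. No such region was present for 6 epithelial, 5 leukocyte and 4 mesothelial markers, the epithelial Epcam and Cdh1 and the leukocyte Ptprc among them. Of 5 endothelial markers, Kdr and Tek had weak ones, and Pecam1 and Cdh5 none; of 5 smooth muscle and pericyte markers, Pdgfrb and Myh11 had regions of 5.25 to 6.14 on 32 kPa and 5.45 to 6.15 on plastic. Summed over a list, the levels were 7.59 on 32 kPa and 7.74 on plastic for fibroblasts, 4.11 and 4.41 for endothelium, and 6.76 and 6.84 for smooth muscle and pericytes. The fibroblast count and sum include Col1a1 (5.27 on 32 kPa, 5.60 on plastic). The cells were sorted by a Col1a1-GFP transgene, so that gene is not an independent check of the label. Markers of other cell types were themselves among the regions listed above 0.2 kPa, mostly far from their promoters. These marker counts had no distance limit and ran over all genes of a list. They are thus not directly comparable with the shares of all genes given above. Those were 17.2% for 32 kPa and 15.4% for plastic, among genes with a region at the lowest listed level within 100 kb. On the 32 kPa list were 2 of 4 mesothelial genes with 3 regions, Wt1 at 36.4 and 47.9 kb (folds of 1.43 and 1.09) and Upk3b at 18.4 kb (1.57), in the authors' deposited table, and no epithelial, endothelial, leukocyte, smooth muscle or pericyte marker. On the plastic list were Wt1 (fold 1.12), the endothelial Kdr with 2 regions (3.78 and 4.93 on 0.2 kPa, 5.28 and 5.98 on plastic), the epithelial Krt8 (fold 1.04) and the promoter of Myh11 (fold 1.13), in the authors' deposited table, and no leukocyte marker. Of the fibroblast markers, 2 of 8 were on each list, Col1a2 and Thy1 for 32 kPa with 3 regions and Col1a1 and Col1a2 for plastic with 4. Because soft levels were given for listed regions alone, the marker lists could not be summed on 0.2 kPa. The part of other cells in the differences from the soft surface was not tested.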

How the data were processed

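6 libraries (2 per culture, grouped by the culture named in their titles) of 50000 cells each were read to 51 bp from both ends. BWA, Picard, MACS2, DiffBind and the build mm10 are named in the submitters' processing notes; settings, scaling between libraries and any transposase shift are not given in the sources used here. Levels are log2 mean normalised reads over a culture's libraries and folds are log2 differences, as deposited per the file headers. The p-value and FDR, also deposited, were computed by the authors over the regions they tested. Values per library and depth were not available here, so no spread between libraries can be given. The authors' p and FDR are the only statistics available, and an FDR does not measure that spread. They rest on 2 libraries per culture, whose origin in separate animals is not given and which may be technical.

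The tables of 0.2 kPa name their sides Control and Treat. Control was read as the stiffer culture because its level equalled the 32 kPa level at all 643 intervals shared with the table that names its cultures, and was 0.01 to 0.02 above the plastic level at 653. Starts are 1-based, which for the plastic table meant adding 1. In both lists against 0.2 kPa the annotation places Id4 regions farther upstream than in the table of 32 kPa against plastic. The shift is 311 bases for the 32 kPa list, and on the plastic list the intronic region is at -33502 bases against -33195. Distances from the table of 32 kPa against plastic are used unless a listed region is described. Regions were matched between tables at 50% of both lengths. 1 repeated header row was dropped.

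All 10 genes and every region within 100 kb are covered; the genes, the lists of related genes and markers and the motifs were chosen with earlier results of these data known. Related genes are named where listed or past FDR 0.05. No test was made beyond the authors'. Matching and motif search were tested on simulated data. Python 3.11.15, pandas 2.3.3, numpy 2.4.6 and matplotlib 3.10.9 were used. Alternatives were the distance limit, FDR, level filter, centring and matching.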

Additional observations from a re-analysis of the deposited data

How the results depend on the processing

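The count of listed regions depended on the FDR and, for plastic, on the distance limit. With an FDR of at most 0.01 the 5 regions on the 32 kPa list became 2, both at Id4, and the 2 on the plastic list became 1. With a limit of 10 kb the plastic count was 1 and the 32 kPa count 4, the intronic Id4 region being too far away; limits of 50 kb or none left both counts at 5 and 2. The count of 0 between 32 kPa and plastic was 0 under each distance limit, an FDR of 0.1 and an unadjusted p under 0.05. The median fold of plastic over 32 kPa, -0.03, became 0.0 with no limit on distance and -0.08 when centred on all regions, and stayed within 0.01 under the 4 other settings. The levels read from another table did not change with matching at 90% or at 1 bp, in 14 of 14 cases. The matched intervals nearly coincided, so this alternative could hardly have changed a level. The strongest region within 1 kb had the level of that within 100 kb in 14 of 18 cases. Summing all regions within 100 kb moved the level in 20 of 20 cases and changed the order of genes: Twist2, with 8 regions, reached 7.90 on 32 kPa and 7.96 on plastic, above Id4 (7.84 and 7.79), Snai1, Id1 and Twist1 and below Id2 and Id3. No library could be left out, because the tables hold culture means. No paired analysis was possible because the columns carry no replicate numbers, only means of 2 libraries. Depth is unknown, so no limit by depth can be given.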
